A study of Mus musculus with 6 samples.

Results

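Among the 51826 gene rows of a mouse cortex RNA sequencing table, 10 were described here because their read counts were close to on-off between irradiated mice with and without legumain (Lgmn). They were Gm45836, Mir686, Gm2427, Gm43205 and A830036E02Rik, which had counts mainly in Lgmn+/+-IR, and Catspere, Gm43713, Rec8, BC002163 and 1500004A13Rik, which had counts mainly in Lgmn-/--IR. The 10 names were picked from these same counts, so the differences between the genotypes in these 10 rows are descriptions and carry no test. Of the 10, 5 had no count at all in 1 genotype, 2 had 1 or 2 counts per library there, and 3 were clearly detected in both genotypes at very different levels. The GENCODE M21 annotation (build GRCm38) held 1 protein coding gene, 3 pseudogenes, 4 antisense or other long noncoding RNAs, 1 microRNA and 1 gene model of the type TEC among them. They lay on 6 chromosomes (1, 3, 8, 11, 14 and 16), and none was on chromosome 12, which carries Lgmn.

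Such genes are easiest to read beside the gene they resemble or overlap. A processed pseudogene is a copy of a spliced mRNA that was inserted elsewhere in the genome, an unprocessed pseudogene is a duplicated gene that keeps its introns, and an antisense RNA is transcribed from the opposite strand of another gene. A read that fits several near-identical places can be assigned to any of them, and without strand information a read from a gene cannot be told from a read of its antisense partner. In adult cortex, the parent genes met here include housekeeping genes that most cells express, such as Ndufs5 of the respiratory chain and Psmb5 of the proteasome, whereas Catspere and Rec8 are known from germ cells and Krt12 from the corneal epithelium.

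The libraries came from the cortex of male Balb/c mice aged 6 to 8 weeks, taken on day 3 after X-ray irradiation of the whole brain with 10 Gy. There were 3 Lgmn+/+-IR and 3 Lgmn-/--IR libraries from polyA RNA, and unirradiated mice were not analysed here. The Lgmn-/- line was bred from mice with a flox allele made through a positive ES cell clone, a Flp line and a Cre line, and the Cre driver, and with it the cells that carry the deletion, is not given in the sources used here. Lgmn encodes the lysosomal cysteine protease also called AEP. The authors genotyped the mice from tail DNA and reported, by immunoblot, that the AEP band was lost in Lgmn-/- cortex. Whether each library was a separate mouse is not stated beyond the label of 3 samples a genotype, so p-values measure the spread between these samples.

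Library totals lay between 41874462 and 46829441 counts, and no pair of libraries of the same genotype agreed within sampling noise. Lgmn had 5558, 5528 and 5775 counts in Lgmn+/+-IR against 3703, 3269 and 4109 in Lgmn-/--IR, which was lower by a log2 fold change of -0.64 ± 0.12 (SE; adjusted p = 0.0315, edgeR quasi-likelihood test). The row covers the whole gene, so it does not show the deleted stretch, and the adjusted p lay between 0.0949 and 0.131 without any 1 of the Lgmn+/+-IR libraries or without Lgmn-/--IR replicate 1. Neuron markers were present in all libraries, with a summed level of 6533 to 7625 CPM (counts scaled to library size) in Lgmn+/+-IR against 7238 to 8815 CPM in Lgmn-/--IR. All 5 erythroid markers were higher in Lgmn-/--IR, where they summed to 234 to 2273 CPM against 7.59 to 15.8 CPM. Oligodendrocyte markers summed to 2090 to 2535 CPM in Lgmn+/+-IR against 1470 to 1626 CPM in Lgmn-/--IR, and 3 of 4 were lower at an adjusted p under 0.05, while the 5 striatum markers spread within both genotypes, from 293 to 1067 CPM and from 197 to 1085 CPM. The part of these differences in the values below was not tested, and in bulk tissue fewer cells of a type and less RNA per cell cannot be told apart.

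Across the table, 18345 genes passed the filter on low counts, among them all 10 of these genes. A gene is called a DEG where its adjusted p was under 0.05 and its absolute log2 fold change over 1, and 377 genes (2.06%) were DEGs, with 176 (0.959%) at a higher level in Lgmn-/--IR and 201 (1.1%) at a lower one. An adjusted p under 0.05 with any fold was found in 611 genes (3.33%). The libraries of the 2 genotypes did not overlap in any of the 10 genes, which the choice of genes fixes, and they did not overlap in 25.7% of all genes tested.

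**Figure D1:**
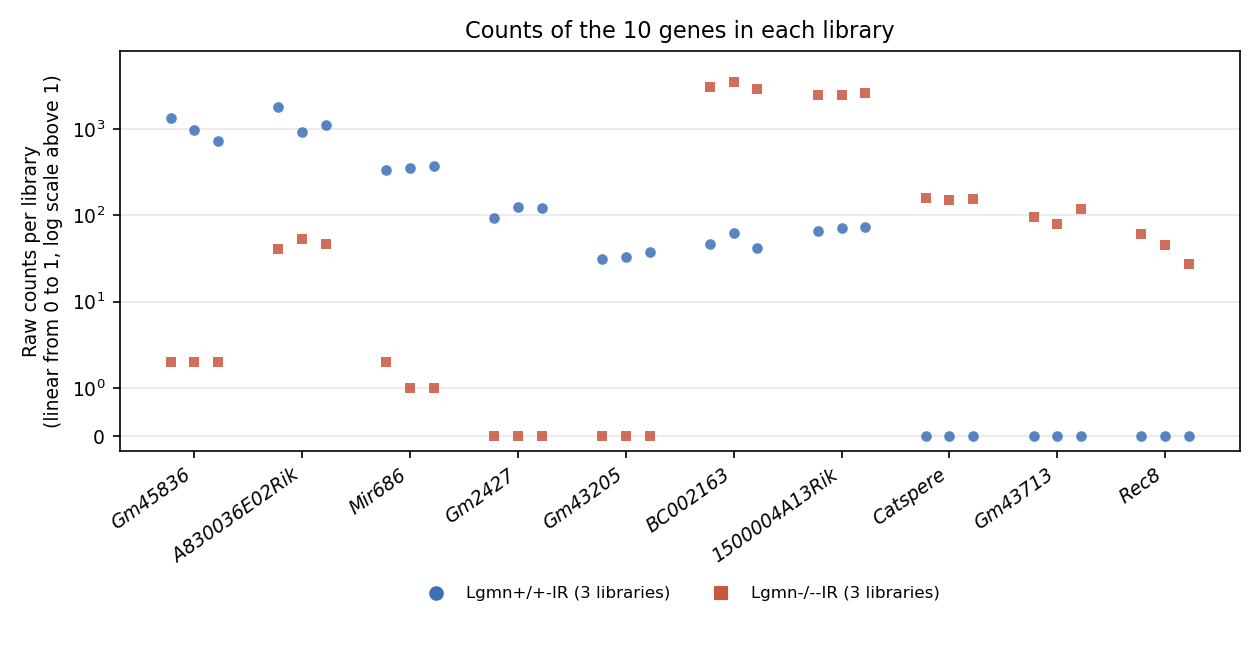
Raw counts per library (vertical axis, linear from 0 to 1 and logarithmic above 1) of the 10 genes in the 3 Lgmn+/+-IR libraries (blue circles) and the 3 Lgmn-/--IR libraries (red squares). In 5 genes all 3 libraries of 1 genotype are at 0, and BC002163, 1500004A13Rik and A830036E02Rik have counts in all 6 libraries.

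BC002163 is a processed pseudogene of Ndufs5, an accessory subunit of mitochondrial complex I, and lies at chr16:42955631-42955949 on the plus strand inside an intron of Zbtb20. It had 46, 62 and 42 counts in Lgmn+/+-IR against 3041, 3496 and 2859 in Lgmn-/--IR. Every Lgmn-/--IR library stood far above every Lgmn+/+-IR library, with a mean of 69.6 ± 5.18 CPM (SD, n = 3) against 1.15 ± 0.269 CPM. The mean was 60.6-fold higher, and single pairs of libraries differed by 45.0-fold to 81.6-fold. Per length the level in Lgmn-/--IR was 190 ± 23.4 FPKM (fragments scaled for gene length and library depth), above 99.1% of the genes with any FPKM.

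The 319 bases of BC002163 aligned without a gap to the Ndufs5 mRNA and differed at 2 positions, C81T and G105A, counted from 1 at the 5′ end of BC002163 with its base first. Both fall on the last base of a codon of Ndufs5. The first 300 bases are shown for both, taken from GENCODE M21 transcripts, with the differing bases in capitals, because within the shared bases only reads across these positions can separate the pair.
BC002163: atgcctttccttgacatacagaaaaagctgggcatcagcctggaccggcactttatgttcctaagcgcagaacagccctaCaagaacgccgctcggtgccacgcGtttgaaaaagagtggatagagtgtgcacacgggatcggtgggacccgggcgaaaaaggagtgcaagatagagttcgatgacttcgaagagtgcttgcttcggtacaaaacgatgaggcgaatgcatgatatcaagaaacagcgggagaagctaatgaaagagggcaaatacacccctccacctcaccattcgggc
Ndufs5: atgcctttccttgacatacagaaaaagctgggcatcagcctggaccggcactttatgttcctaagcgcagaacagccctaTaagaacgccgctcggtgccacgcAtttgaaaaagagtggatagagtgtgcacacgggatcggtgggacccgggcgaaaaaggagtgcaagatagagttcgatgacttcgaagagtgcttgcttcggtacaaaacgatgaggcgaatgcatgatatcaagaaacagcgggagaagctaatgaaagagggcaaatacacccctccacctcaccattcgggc

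Ndufs5, on chromosome 4, was a DEG in the opposite direction. It had 3372, 3316 and 3160 counts in Lgmn+/+-IR against 549, 726 and 500 in Lgmn-/--IR, a log2 fold change of -2.52 ± 0.14 (SE; adjusted p = 0.000217, edgeR quasi-likelihood test), and it remained a DEG in all 12 alternative analyses. The counts of the pair added up to 3418, 3378 and 3202 in Lgmn+/+-IR against 3590, 4222 and 3359 in Lgmn-/--IR. These sums overlapped between the genotypes and gave 76.5 ± 5.29 CPM and 82.8 ± 7.40 CPM (SD, n = 3), a ratio of 1.08. BC002163 held 1.5 ± 0.293% of the pair's counts in Lgmn+/+-IR against 84.2 ± 1.23% in Lgmn-/--IR. Zbtb20, a zinc finger transcription factor that is abundant in astrocytes and surrounds BC002163 on the same strand, showed a log2 change of -0.40 ± 0.20 (adjusted p = 0.335).

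Mir686 is annotated as a microRNA gene of 109 bases at chr14:54616677-54616785 on the minus strand, and all 109 bases lie inside a coding exon of Psmb5 on the same strand. It had 336, 355 and 367 counts in Lgmn+/+-IR against 2, 1 and 1 in Lgmn-/--IR. The Lgmn+/+-IR libraries were close to each other at 8.08 ± 0.208 CPM, a spread of 2.57% where counting error alone gives 5.32%, and the Lgmn-/--IR libraries were almost empty. With 4 counts in all on the low side, the ratio was 272, with a 95% exact counting interval of 106 to 1001. RefSeq (GRCm38.p6) places the mature microRNA at chr14:54616746-54616767, and its sequence is shown with the seed (bases 2 to 8) in capitals, followed by the RefSeq hairpin with the mature bases 19 to 40 in capitals, to show how the microRNA sits in what is also Psmb5 coding sequence.
mmu-miR-686 mature: aUUGCUUCccagacggugaaga
Mir686 hairpin: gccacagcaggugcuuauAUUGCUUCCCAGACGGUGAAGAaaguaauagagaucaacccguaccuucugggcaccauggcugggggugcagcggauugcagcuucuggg
Of 1738 mature mouse microRNAs in the RefSeq table, 2 carry this seed, and the other is mmu-miR-7231-3p. The libraries were made from polyA RNA, which does not capture mature microRNAs by design, and reads over these 109 bases have the same sequence whether they come from the hairpin or from Psmb5 mRNA.

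Psmb5 encodes the proteasome subunit with chymotrypsin-like activity. It had 2791, 3018 and 3234 counts in Lgmn+/+-IR against 3973, 5386 and 4315 in Lgmn-/--IR, with a log2 fold change of 0.55 ± 0.12 (SE; adjusted p = 0.0521, edgeR quasi-likelihood test), just outside the threshold. All 3 Lgmn-/--IR libraries were above all Lgmn+/+-IR libraries in Psmb5, opposite in direction to Mir686. A further copy, the processed pseudogene Gm3375 on chromosome 7, carried C63T and C72T against Mir686 and 1 gap. The stretch of Mir686 from base 29 to base 109 is shown for both, with the differing bases in capitals.
Mir686: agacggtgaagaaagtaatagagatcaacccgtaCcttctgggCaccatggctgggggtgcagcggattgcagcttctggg
Gm3375: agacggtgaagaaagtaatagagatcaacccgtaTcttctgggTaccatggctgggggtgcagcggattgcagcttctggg
Gm3375 had 1663, 1918 and 1717 counts in Lgmn+/+-IR against 758, 48 and 37 in Lgmn-/--IR, so that Lgmn-/--IR replicate 1 stood apart from the other 2. Its log2 fold change was -2.68 ± 1.05 (adjusted p = 0.235) and, without that library, -5.42 (adjusted p = 0.000134, edgeR quasi-likelihood test). That fit was singled out after the value of the library was seen. Without any other 1 library the log2 fold change of Gm3375 was -2.73 to -2.17 (adjusted p from 0.28 to 0.426). The counts of Mir686, Gm3375 and Psmb5 added up to 4790, 5291 and 5318 in Lgmn+/+-IR against 4733, 5435 and 4353 in Lgmn-/--IR. These sums overlapped, at 118 ± 5.68 CPM and 108 ± 8.99 CPM (SD, n = 3), a ratio of 0.915, and Mir686 held 6.88 ± 0.154% of them in Lgmn+/+-IR against 0.0279 ± 0.0127% in Lgmn-/--IR. Without Mir686, Gm3375 and Psmb5 summed to 109.5 ± 5.47 CPM in Lgmn+/+-IR against 107.6 ± 8.995 CPM in Lgmn-/--IR, a ratio of 0.982. The sums were thus of similar size with or without Mir686.

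**Figure D2:**
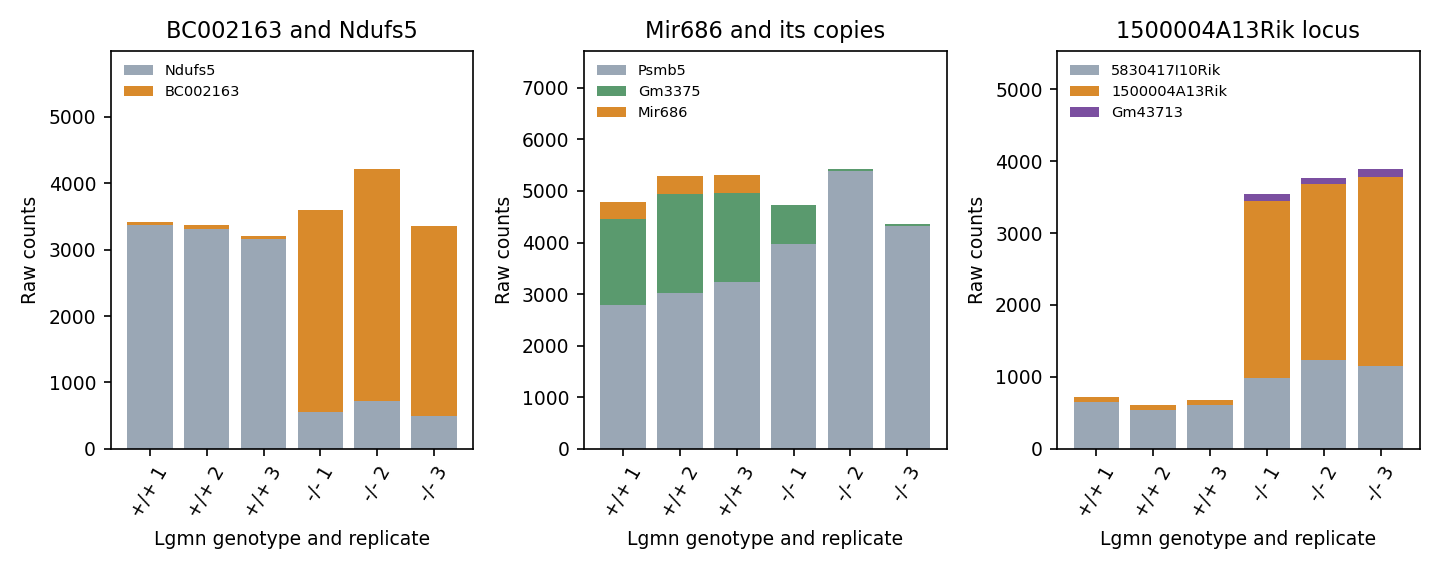
Raw counts in each library (vertical axis) stacked by gene, for BC002163 with Ndufs5 (left), Mir686 with Gm3375 and Psmb5 (middle), and 1500004A13Rik with Gm43713 and 5830417I10Rik (right), with Lgmn+/+-IR marked +/+ and Lgmn-/--IR marked -/- along the horizontal axis. The left and middle columns reach similar heights in both genotypes, with ratios of the CPM sums of 1.08 and 0.915, while the right columns are taller in all 3 Lgmn-/--IR libraries.

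A pair of these genes, 1500004A13Rik and Gm43713, lay 12478 bases apart on the minus strand of chromosome 3 and were near-identical to each other over 1850 aligned bases, with 7 differing and 2 gapped bases (99.6% identity). 1500004A13Rik, a noncoding transcript at chr3:88782943-88832547, had 66, 71 and 74 counts in Lgmn+/+-IR against 2458, 2439 and 2623 in Lgmn-/--IR. Its libraries were close within each genotype, at 1.61 ± 0.0574 CPM and 55.9 ± 3.64 CPM (SD, n = 3), a 34.7-fold difference with single pairs of libraries from 31.7-fold to 38.6-fold. Gm43713, at chr3:88845025-88900001, had no count in Lgmn+/+-IR against 95, 80 and 118 in Lgmn-/--IR. Against a floor of 3 counts per library it was at least 31.7-fold higher in Lgmn-/--IR. Their levels in Lgmn-/--IR were 17.9 ± 0.558 FPKM and 0.988 ± 0.174 FPKM.

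The stretch of 150 bases with the most differences between the pair is shown with the 2 differing bases in capitals. They are G1254A and C1401T, counted along the aligned 1500004A13Rik transcript, and most of the rest of the aligned sequence is shared.
1500004A13Rik: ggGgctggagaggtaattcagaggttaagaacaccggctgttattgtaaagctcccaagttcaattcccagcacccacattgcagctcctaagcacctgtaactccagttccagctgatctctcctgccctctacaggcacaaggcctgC
Gm43713: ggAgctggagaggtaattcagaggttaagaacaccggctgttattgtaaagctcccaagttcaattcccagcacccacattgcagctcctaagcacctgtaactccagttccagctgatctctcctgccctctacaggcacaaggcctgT
Because of this identity the counts of Gm43713 are uncertain as separate values. For 1500004A13Rik this holds over the aligned bases, a small part of its 13854 exon bases. The sum of the pair was 36.0-fold higher in Lgmn-/--IR, with pairs of libraries between 32.7-fold and 40.4-fold.

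Each member of the pair runs antisense to a gene of the same family. Gm43713 overlaps 264 coding bases of Gon4l, a nuclear regulator of transcription, and 1500004A13Rik overlaps 2897 exon bases of 5830417I10Rik, an unprocessed pseudogene. Gon4l had 3152, 2572 and 2921 counts in Lgmn+/+-IR against 4718, 5232 and 5013 in Lgmn-/--IR, and was higher by a log2 fold change of 0.75 ± 0.10 (SE; adjusted p = 0.012, edgeR quasi-likelihood test). 5830417I10Rik had 651, 534 and 605 counts in Lgmn+/+-IR against 991, 1241 and 1156 in Lgmn-/--IR, a log2 fold change of 0.88 ± 0.13 (adjusted p = 0.0139). Both passed the p threshold and stayed under the fold limit of a DEG, and with the strand setting of the counting not given in the sources used here, reads of a sense gene and its antisense partner cannot be told apart. Gon4l no longer passed the p threshold without Lgmn+/+-IR replicate 2 (adjusted p = 0.0665) or 3 (adjusted p = 0.061). 5830417I10Rik did not pass it without these libraries (adjusted p of 0.0803 and 0.0683) or without Lgmn-/--IR replicate 3 (0.0584). Among the genes further out none passed the threshold, although Dap3, a protein of the mitochondrial ribosome, with 1575, 1538 and 1808 counts against 2259, 2508 and 2033, and 2810403A07Rik did not overlap between the genotypes. Their log2 fold changes were 0.43 (adjusted p = 0.0706) and 0.34 (adjusted p = 0.125). Those of Syt11 (-0.02), Rit1 (0.15), Msto1 (-0.05) and Ash1l (0.04) had adjusted p from 0.485 to 0.915.

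Catspere encodes an auxiliary subunit of CatSper, the calcium channel of the sperm tail. GENCODE M21 names this row Catspere1, types it as an unprocessed pseudogene, and places it at chr1:177808550-177962233 on the plus strand. It had no count in the 3 Lgmn+/+-IR libraries, each of which allows up to 3 counts or 0.066 to 0.0703 CPM, and 157, 150 and 154 counts in Lgmn-/--IR. The Lgmn-/--IR libraries were closely alike at 3.42 ± 0.168 CPM, a spread of 4.91% where counting error alone gives 8.07%, and the difference was at least 49.8-fold. Its level there was 1.01 ± 0.0356 FPKM, above 56.9% of the genes with any FPKM.

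The second gene of the pair, Gm16432 (Catspere2), begins 21190 bases beyond Catspere on the same strand. Over 2927 aligned bases 200 differed and 109 were gapped, an identity of 93.2%. A stretch of 150 bases within the Catspere2 coding sequence, chosen because its 10 differences are close to the overall rate, is shown with the differing bases in capitals, since here reads of the 2 genes can be told apart.
Catspere: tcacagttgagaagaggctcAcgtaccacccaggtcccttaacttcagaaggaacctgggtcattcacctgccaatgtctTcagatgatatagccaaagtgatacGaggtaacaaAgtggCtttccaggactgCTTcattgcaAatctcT
Gm16432: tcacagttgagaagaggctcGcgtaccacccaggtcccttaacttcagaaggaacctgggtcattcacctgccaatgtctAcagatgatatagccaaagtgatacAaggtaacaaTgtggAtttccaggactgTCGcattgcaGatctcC
Gm16432 had 91, 87 and 82 counts in Lgmn+/+-IR against 201, 203 and 156 in Lgmn-/--IR, a log2 fold change of 1.06 ± 0.18 (SE; adjusted p = 0.0238, edgeR quasi-likelihood test). It was not a DEG without any 1 of 5 libraries, namely each Lgmn+/+-IR library and Lgmn-/--IR replicates 1 and 2, with adjusted p from 0.0564 to 0.11. Between Gm16432's ends lies the pseudogene Gm8010, which went the other way with 161, 197 and 261 counts in Lgmn+/+-IR against 20, 27 and 15 in Lgmn-/--IR. Its log2 fold change was -3.35 ± 0.28 (adjusted p = 0.00133), and it remained a DEG in all 12 alternatives. On the other side of Catspere, Adss, an enzyme of purine synthesis, showed a log2 change of -0.14 (adjusted p = 0.386).

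Gm2427 is an unprocessed pseudogene at chr1:85501090-85514604 on the plus strand, in a cluster with Sp110, Sp140 and Sp100, which encode nuclear body proteins known from immune cells. It had 92, 124 and 122 counts in Lgmn+/+-IR, or 2.58 ± 0.381 CPM, and no count in Lgmn-/--IR, where the floor was 0.0646 to 0.0684 CPM. All 3 Lgmn-/--IR libraries were empty, a difference of at least 38.6-fold. Its 881 bases differed from Sp140 at 11 positions (98.8% identity), and the 150 bases that hold 5 of them, T283G, G354A, A372G, A381T and C382T, are shown with these in capitals, because they are where the pair can be separated.
Gm2427: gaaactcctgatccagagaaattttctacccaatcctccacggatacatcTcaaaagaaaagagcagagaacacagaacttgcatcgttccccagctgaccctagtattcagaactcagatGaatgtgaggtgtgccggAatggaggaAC
Sp140: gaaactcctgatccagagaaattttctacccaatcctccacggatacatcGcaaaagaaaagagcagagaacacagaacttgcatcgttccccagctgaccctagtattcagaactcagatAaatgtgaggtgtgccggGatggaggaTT
Sp140 had 72, 67 and 75 counts in Lgmn+/+-IR against 46, 33 and 46 in Lgmn-/--IR, a log2 fold change of -0.81 ± 0.24 (SE; adjusted p = 0.132, edgeR quasi-likelihood test). Gm6264, another copy in the cluster, had 15, 12 and 17 counts against 3, 8 and 7 (adjusted p = 0.179). Both lay in the same direction as Gm2427 without passing the threshold. Gm6264, with 3, 8 and 7 counts in Lgmn-/--IR, passed the filter only through Lgmn+/+-IR, which fixes its direction. Sp140 and Gm6264 are near-identical to Gm2427, so neither is independent of its choice. Their direction is therefore no support for the Gm2427 difference. Arhgef12 on chromosome 9, whose transcript holds all 881 bases in reverse at 98.6% identity, had 8204, 8401 and 9708 counts against 9964, 9283 and 6022, which overlapped (log2 fold change -0.10, adjusted p = 0.8). The sum of Gm2427, Sp140 and Gm6264 was 0.234 of its Lgmn+/+-IR level in Lgmn-/--IR. Gm2427, picked for its counts, held 56.5 ± 4.86% of this sum in Lgmn+/+-IR. Sp110 (-0.09) and Sp100 (0.41) had log2 fold changes with adjusted p of 0.919 and 0.584. The lincRNA Gm16092 runs antisense over 444 exon bases of Gm2427 and did not pass the filter on low counts.

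Gm45836 is a long intergenic noncoding RNA at chr8:121833247-121841178 on the plus strand, named Gm42047 in GENCODE M21, between Klhdc4 and Slc7a5. It had 1335, 973 and 717 counts in Lgmn+/+-IR, and every Lgmn-/--IR library had 2. The Lgmn+/+-IR libraries spread widely, at 23.3 ± 7.78 CPM, a spread of 33.4% where counting error alone gives 3.15%, and the lowest of them, 717, was far above Lgmn-/--IR. With 6 counts in all in Lgmn-/--IR the ratio was 519, with a 95% exact counting interval of 238 to 1414. Its level in Lgmn+/+-IR was 4.46 ± 1.43 FPKM, above 70.1% of the genes with any FPKM.

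No full copy of Gm45836 was found, but 4 lincRNAs on chromosomes 3, 9 and 10 matched between 50.9% and 64.2% of its length at 98.3% to 99.1% identity. AC153370.2 had 37, 20 and 29 counts in Lgmn+/+-IR against 3, 2 and 2 in Lgmn-/--IR, a log2 fold change of -3.59 ± 0.45 (SE; adjusted p = 0.00832, edgeR quasi-likelihood test). AC153548.2 (36, 17 and 20 against 2, 2 and 3) and Gm43549 (22, 18 and 13 against 2, 2 and 2) were DEGs in the same direction, with adjusted p of 0.0183 and 0.0166. AC141438.1 had 13, 10 and 7 counts against 2, 4 and 2 and did not pass the filter. The 3 tested were lower in Lgmn-/--IR, at far fewer counts than Gm45836. With 2 or 3 counts per library in Lgmn-/--IR, they passed the filter only through Lgmn+/+-IR, which fixes this direction. Their shared direction is therefore no support for the Gm45836 difference. With such identity the counts of these copies are also uncertain as separate values. AC153548.2 was no longer a DEG without any 1 of the 6 libraries (adjusted p from 0.0509 to 0.0703), and Gm43549 without any 1 of 5, all but Lgmn+/+-IR replicate 3 (0.0575 to 0.0848). The neighbours in place, Klhdc4 (log2 fold change -0.35, adjusted p = 0.162) and the amino acid transporter Slc7a5 (-0.14, adjusted p = 0.501), did not pass the threshold, nor did Banp further out, which was higher in all 3 Lgmn-/--IR libraries (0.65, adjusted p = 0.0745).

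A830036E02Rik is an antisense RNA at chr11:99416956-99425497 on the plus strand, sharing 1007 exon bases with Krt12, a keratin of the corneal epithelium. It had 1799, 925 and 1111 counts in Lgmn+/+-IR against 41, 53 and 46 in Lgmn-/--IR. Lgmn+/+-IR replicate 1 was the highest, and the lowest Lgmn+/+-IR library was still far above all Lgmn-/--IR libraries. The means were 29.4 ± 11.2 CPM and 1.04 ± 0.110 CPM (SD, n = 3), a 28.3-fold difference, with single pairs of libraries from 18.9-fold to 45.7-fold. Its level in Lgmn+/+-IR was 10.5 ± 2.80 FPKM, above 80.7% of the genes with any FPKM.

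Krt12, whose expression is not typical of cortex, had 799, 477 and 520 counts in Lgmn+/+-IR against 89, 144 and 145 in Lgmn-/--IR. It was lower in all 3 Lgmn-/--IR libraries, by a log2 fold change of -2.29 ± 0.28 (SE; adjusted p = 0.00738, edgeR quasi-likelihood test), and was highest in the same library as A830036E02Rik. Of the counts of the overlapping pair, Krt12 held 32.2 ± 1.66% in Lgmn+/+-IR, and its share was 72.5 ± 3.76% in Lgmn-/--IR. Krt20, a keratin of the intestinal epithelium 2906 bases past the end of A830036E02Rik, had 46, 36 and 48 counts against 1, 9 and 5, a log2 fold change of -3.13 ± 0.54 (adjusted p = 0.0275). It was not a DEG without any 1 of the Lgmn+/+-IR libraries or without Lgmn-/--IR replicate 3 (adjusted p from 0.0826 to 0.117). Krt25, with 10, 25 and 23 counts against 6, 0 and 0, missed the threshold (adjusted p = 0.144), while Krt10 showed a log2 change of 0.03 (adjusted p = 0.965) and Krt222 of -0.43 (adjusted p = 0.0953). Krt20 and Krt25 passed the filter on low counts only through Lgmn+/+-IR, which fixes their direction.

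Rec8, the only gene typed as protein coding, encodes the kleisin subunit of meiotic cohesin, the ring that holds sister chromatids together in germ cells. It lies at chr14:55618037-55625395 on the plus strand, 1001252 bases from Mir686. It had no count in Lgmn+/+-IR against 60, 45 and 27 counts in Lgmn-/--IR. The 3 Lgmn-/--IR libraries spread widely, at 0.978 ± 0.368 CPM, a spread of 37.6% where counting error alone gives 15.1%, and the difference was at least 14.2-fold. The share of hemoglobin counts in the same libraries was 0.223%, 0.177% and 0.0217%, and its part in the Rec8 values was not tested. Per length, Rec8 reached 0.599 ± 0.333 FPKM. No near-identical copy was found, and the tightly packed genes around it did not pass the threshold. Ipo4, a nuclear import receptor that ends 5 bases away on the other strand, showed a log2 change of 0.02 (adjusted p = 0.924), and Irf9, a transcription factor of interferon signaling, of -0.10 (adjusted p = 0.664).

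Gm43205 is a gene model of 1968 bases in a single exon at chr3:36097177-36099144 on the plus strand, of the GENCODE type TEC, which awaits experimental evidence. It had 31, 33 and 38 counts in Lgmn+/+-IR and none in Lgmn-/--IR. Its level in Lgmn+/+-IR was 0.778 ± 0.0548 CPM, the difference was at least 11.6-fold, and the spread of 7.05% was below the 17.1% that counting error alone gives. No overlapping gene and no copy at 95% identity or more was found. The nearest gene, Acad9, a mitochondrial acyl-CoA dehydrogenase 4324 bases away, showed a log2 change of 0.24 (adjusted p = 0.25).

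Taking all genes that overlap or lie nearest to the 10, with 3 on each side, 59 were tested and 4 were DEGs (6.78%, beside 2.06% of all genes tested), of which Gm16432 was higher and Gm8010, Krt12 and Krt20 were lower in Lgmn-/--IR. Their median log2 fold change was -0.05, beside -0.01 over all genes tested, and the libraries did not overlap in 24 of the 59, beside 25.7% of all genes tested. These 4 stood beside 2 of the 10 genes, Catspere and A830036E02Rik. Krt12 shares 1007 exon bases with A830036E02Rik, and Gm16432 is 93.2% identical to Catspere over the aligned bases. Their calls may thus rest in part on reads of genes picked for their counts, which was not tested. Krt20, with 1, 9 and 5 counts in Lgmn-/--IR, passed the filter only through Lgmn+/+-IR, which fixes its direction. The share of DEGs beside the 10 genes is therefore no support for their differences. DESeq2 also called 4. With 5 genes on each side, an alternative chosen after seeing the data, 95 were tested and 5 were DEGs (5.26%). The added one was Gm15952, an antisense RNA beside Gm43205, with 13, 13 and 25 counts against 4, 1 and 1 (log2 fold change -3.04 ± 0.62, adjusted p = 0.0493, edgeR quasi-likelihood test), and it was a DEG in 3 of 12 alternatives. Gm15952 also passed the filter only through Lgmn+/+-IR, which fixes its direction. Among near-identical copies that are not themselves in the set, 6 were tested and 1, Ndufs5, was a DEG (16.7%, beside 2.06% of all genes tested). Ndufs5 differs from BC002163 at 2 of 319 aligned bases, so its call is not independent of the choice of BC002163.

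**Figure D3:**
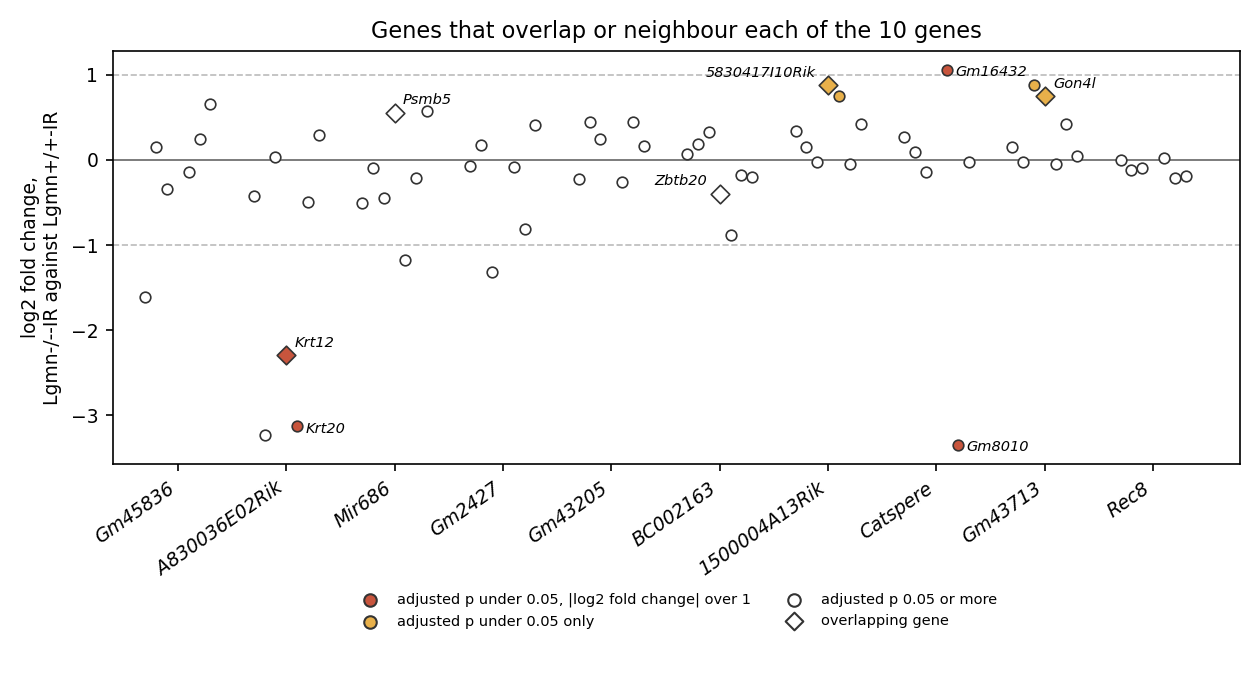
Log2 fold change (vertical axis, Lgmn-/--IR against Lgmn+/+-IR) of the tested genes that overlap each of the 10 genes (diamonds) or lie nearest on each side (circles, ordered by rank and not by distance), grouped along the horizontal axis by gene. Filled red marks DEGs, filled yellow an adjusted p under 0.05 alone, and dashed lines a log2 fold change of 1 and -1. Red points appear beside A830036E02Rik and Catspere.

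The partners of the germ cell genes were examined from lists of known complexes. Of 12 other CatSper channel genes in the table, 5 passed the filter and 1, Gm16432, was a DEG (20.0%, beside 2.06% of all genes tested). The median log2 fold change of the 5 was -0.21. An unadjusted p under 0.05 was found in 2 of them, beside 3413 of the 18345 genes tested. The second of the 2 was Catsperd, an auxiliary subunit, with 29, 16 and 22 counts against 4, 7 and 14, which did not overlap (log2 fold change -1.45 ± 0.51, adjusted p = 0.195). Catsperd passed the filter only through Lgmn+/+-IR, which favours this direction. Catsper1, which forms a pore subunit, was at 0 in all 6 libraries, as were Catsper4 and Als2cr11. Catsper2, another pore subunit, had 110, 90 and 88 counts in Lgmn+/+-IR against 89, 82 and 86 in Lgmn-/--IR, with no separation of the genotypes (adjusted p = 0.617). Catsperz, a small auxiliary subunit, had 212, 174 and 133 counts against 129, 225 and 167 (adjusted p = 0.939).

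Of 19 other cohesin genes, 15 passed the filter and 0 were DEGs by the edgeR quasi-likelihood test or by DESeq2. An unadjusted p under 0.05 was found in 3 of the 15, beside 3413 of the 18345 genes tested. The median log2 fold change of the 15 was 0.07. Rad21, the kleisin of dividing and resting somatic cells, had 5122, 5666 and 5940 counts in Lgmn+/+-IR against 6073, 5596 and 6333 in Lgmn-/--IR (log2 fold change 0.07, adjusted p = 0.754). Pds5b, a regulator of cohesin on chromatin, was higher in all 3 Lgmn-/--IR libraries but missed significance, at a log2 fold change of 0.35 (adjusted p = 0.185), and Smc1a, a core subunit, overlapped between the genotypes (0.24, adjusted p = 0.325). Thus in Lgmn-/--IR the counts of Rec8 were small beside those of the somatic kleisin, whose level was 32.2 ± 1.53 FPKM against 0.599 ± 0.333 FPKM per length. Among the meiotic subunits, Smc1b had 7, 0 and 4 counts in Lgmn+/+-IR and none in Lgmn-/--IR, Rad21l had 7, 5 and 3 against 22, 10 and 19, and Stag3 had 79, 43 and 46 against 53, 44 and 41 (adjusted p = 0.622).

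Germ cell markers mark the cells in which Catspere and Rec8 are known to act. Of 18 in the table, 7 passed the filter and 0 were DEGs by the edgeR quasi-likelihood test or by DESeq2. An unadjusted p under 0.05 was found in 1 of the 7, beside 3413 of the 18345 genes tested. The summed level of the 18 was 7.87 to 9.85 CPM in Lgmn+/+-IR against 6.72 to 8.79 CPM in Lgmn-/--IR. The sperm chromatin genes Prm2, Tnp1 and Tnp2 and the meiotic gene Hormad1 were at 0 in all 6 libraries. Dazl, the most abundant marker, had 153, 140 and 196 counts against 152, 137 and 121 (adjusted p = 0.437). Syce2, a protein of the synaptonemal complex, was the marker with an unadjusted p under 0.05, with 87, 73 and 91 counts against 54, 66 and 55, which did not overlap (log2 fold change -0.56 ± 0.20, adjusted p = 0.198). Ddx4, a germ cell RNA helicase, had 38, 29 and 37 counts against 49, 62 and 34 (adjusted p = 0.472).

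**Figure D4:**
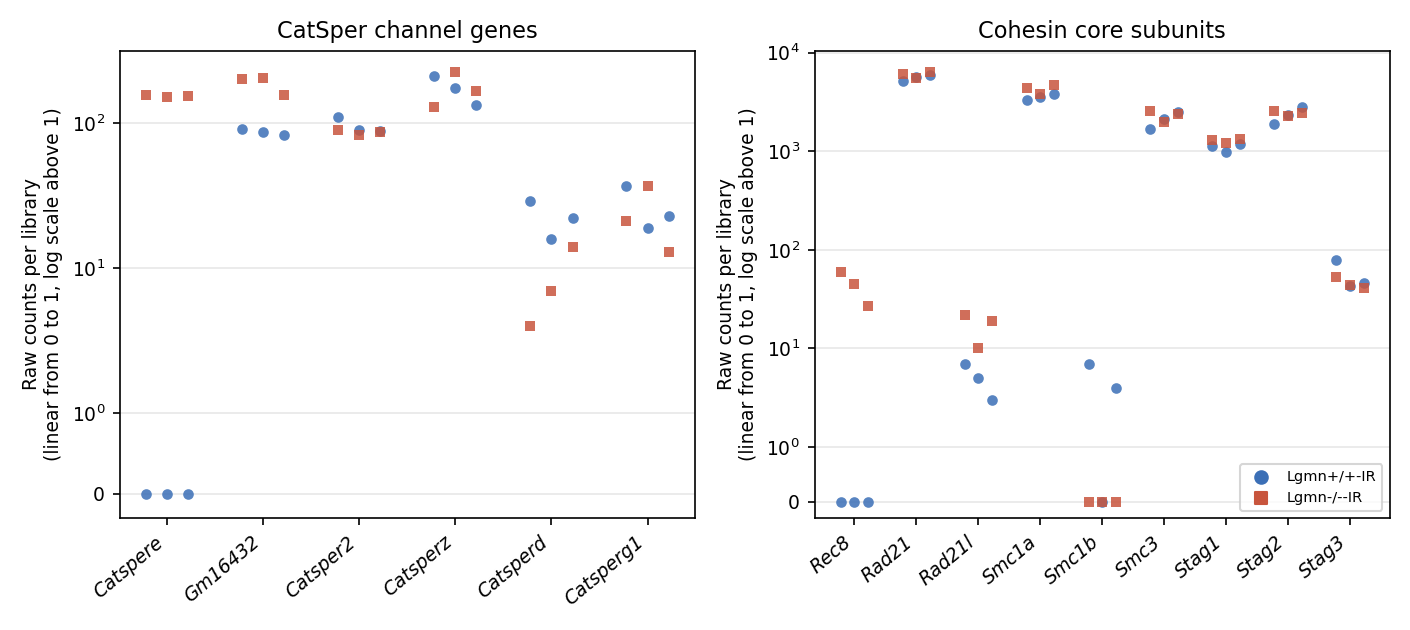
Raw counts per library (vertical axes, linear from 0 to 1 and logarithmic above 1) of CatSper channel genes that passed the filter (left) and of cohesin core subunits (right), in Lgmn+/+-IR (blue circles) and Lgmn-/--IR (red squares). Catspere and Rec8 are at 0 in Lgmn+/+-IR alone, whereas Rad21, Smc1a and Smc3 are well above Rec8 in all 6 libraries.

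How rare the pattern is in the table was described by a count. With 3 counts or fewer in every library of 1 genotype and 30 or more in every library of the other, 16 of the 51826 rows (0.0309%) matched, 11 with counts in Lgmn-/--IR and 5 in Lgmn+/+-IR. Of the 10 genes described here 6 were among them, namely Gm45836, Mir686, Gm2427, Gm43205, Catspere and Gm43713. Just inside the limit was Gm43205 with 31 counts in its lowest library, and just outside was Rec8 with 27. Of the 16 rows 8 were pseudogenes and 3 were protein coding. This is a description only, as the shares of these types over all 51826 rows were not counted. Of the other 10 rows, 4 lay together at chr4:42025429-42589938. A further one, Gm10704, named here after its values were seen, is a processed pseudogene at chr3:88576410-88577139, on the same chromosome as 1500004A13Rik and Gm43713, with 2, 0 and 0 counts in Lgmn+/+-IR against 52, 66 and 110 in Lgmn-/--IR.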

How the data were processed

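RNA sequencing of polyA RNA from mouse cortex gave 6 libraries, 3 per genotype. The authors trimmed reads with Trimmomatic (0.36, build GRCm38 per the submitters' processing notes), aligned them with HISAT2 and deposited raw counts per gene. The authors also deposited FPKM values (StringTie), scaled for length and depth. The strand setting and the handling of reads with several matches are not given in the sources used here. The 10 genes and all lists were chosen with earlier results of these data known.

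Counts were tested with edgeR 4.0.16 (R 4.3.3; TMM, filterByExpr, quasi-likelihood F-test, genotype as the term, Benjamini-Hochberg over all genes tested), with DESeq2 1.42.0 and limma 3.58.1 on log2(FPKM + 1) or log2(FPKM + 0.1) as alternatives. The 10 genes got ratios of mean TMM-scaled CPM without a test. A genotype with no count was set to a floor of 3 counts per library, and one with 1 or 2 counts per library got a ratio of pooled counts with an exact binomial 95% interval (scipy 1.17.1) in place of the planned floor. Intervals and floors cover counting error only. Positions and transcripts came from GENCODE M21 (51633 of 51826 gene IDs matched) and microRNA sequences from RefSeq. A search for copies used BLAST 2.17.0 (identity of 95% or more over 80% of a transcript, or over 50% as an addition after seeing the data) and aligned with Biopython 1.88. Genes were named from a fixed pool, of which the text prints a part: the 10, Lgmn, genes overlapping or within 3 tested genes of them, copies, and list members that were DEGs or the 3 most abundant. Names outside it, chosen after their values were seen, were the partial copies of Gm45836, genes at or near 0 counts, Catsperd, Stag3, Smc3, Gm15952 and Gm10704. The endothelial, microglia, astrocyte, oligodendrocyte, neuron, striatum and choroid plexus lists held 0 DEGs each by edgeR and by DESeq2. In the same order 1, 1, 2, 3, 0, 0 and 0 genes had an unadjusted p under 0.05, of 4, 5, 4, 4, 6, 5 and 4 tested. Over all genes tested 3413 of 18345 had one.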

Additional observations from a re-analysis of the deposited data

How the results depend on the processing

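The level differences of the 10 genes kept their direction in all 85 values computed under another scaling, unit or set of libraries. The choice of near on-off rows fixes this direction, so it is no check of the differences. Of the 85 values, 5 moved by more than the spread between libraries. The main log2 ratios they are set against were -8.44 for Gm45836, -6.92 for Mir686 and 5.92 for BC002163. For Gm45836 and Mir686 these main values use the planned floor of 3 counts per library. As the log2 ratio of mean FPKM, which has no floor, Gm45836 (-9.54) and Mir686 (-8.69) moved. The others were Mir686 (-6.96) scaled by library size alone, and BC002163 without Lgmn+/+-IR replicate 2 (6.12) or 3 (5.79). The number of DEGs was less stable: 593 with DESeq2 (279 higher, 314 lower in Lgmn-/--IR), 175 with limma on log2(FPKM + 1) (83 and 92), and 200 to 326 without 1 library (107 to 156 and 93 to 170). For genes beside the 10 the count was 2 with limma on log2(FPKM + 1) and 2 to 3 without 1 library, where it was 2 without any 1 of the Lgmn+/+-IR libraries. For near-identical copies it was 2 with limma on log2(FPKM + 0.1), and 1 to 2 without 1 library (2 without Lgmn-/--IR replicate 1). With any copy over at least 50% of the gene, an alternative chosen after seeing the data, it was 5 of 12 tested (41.7%, beside 2.06% of all genes tested). These 5 were Ndufs5 and Gm16432, copies of genes picked for their counts, and AC153370.2, AC153548.2 and Gm43549, which passed the filter only through Lgmn+/+-IR. This share is therefore no support for the differences of the 10 genes. For CatSper genes it was 0 with limma on log2(FPKM + 1) and log2(FPKM + 0.1), and 0 to 1 without 1 library. Lgmn gave a log2 change of -0.63 with no filter on low counts (adjusted p = 0.0632) and -0.74 to -0.54 without 1 library. The near on-off pattern held 61 rows with a limit of 10 counts, 5 with no count at all in 1 genotype, and 17 to 25 without 1 library (25 without Lgmn+/+-IR replicate 3). The cause of these changes was not tested.

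Replicate numbers did not pair the samples (mean correlation of same-numbered deviations -0.135). With the replicate number as a block there were 139 DEGs (74 higher, 65 lower; 138 of them shared with the fit without it), 1 beside the 10 genes (Gm8010), 1 among near-identical copies (Ndufs5), and 0 each among CatSper, cohesin and germ cell genes, and Lgmn gave a log2 change of -0.65 (adjusted p = 0.113). In that fit the adjusted p was 0.0728 for Krt12, 0.0793 for Gon4l and 0.0989 for 5830417I10Rik.

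With 3 libraries a genotype and totals of 41874462 to 46829441, a genotype at 0 counts is limited only to 0.0646 to 0.0703 CPM, and the folds against it are lower bounds. Rows that share sequence or exons with another row, and antisense rows, depend on how reads were assigned, which these files do not show.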
